A study of Rattus norvegicus with 6 samples.

Results

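The genes of the Wnt pathway were followed in rat H9c2 cells, a myoblast line from embryonic heart, with and without Nono. Nono encodes an RNA- and DNA-binding nuclear protein of the DBHS family. Members were chosen by gene symbol and not by their values: the Wnt ligands, the Frizzled receptors (Fzd), Dishevelled (Dvl1 to Dvl3), the secreted Sfrp, Dkk and Rspo proteins, the Tcf7 family with Lef1, and Lrp5, Lrp6, Ror1, Ror2, Axin1, Axin2, Apc, Apc2 and Ctnnb1. Of 16319 gene symbols in the count table, 44 matched. A further 13 RefSeq symbols that fit the same pattern, among them Wnt5a, Sfrp1 and Dkk1, were not among the 16319. They thus had no counts to analyse here, and the reason for their absence is not given. RNA-seq libraries came from wild type cells (WT, n = 3) and from a line with a CRISPR-Cas9 knockout of Nono (Nono-KO, n = 3), made by transfecting a plasmid with Cas9, a puromycin marker and an sgRNA against Nono. A pEGFP-N1 plasmid is named as the control of that transfection, and the labels of the WT libraries do not say whether their cells received it. The study's scheme shows puromycin selection and then expansion of a single clone, so differences between clones cannot be told apart from the loss of Nono. Both groups grew in DMEM with fetal bovine serum. The study's methods call the 3 libraries of a group biological replicates, without saying whether they were separate cultures, and the p-values measure only the spread between these libraries.

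Wnt proteins are lipid-modified secreted ligands that bind Frizzled receptors together with the co-receptors Lrp5 or Lrp6. In the absence of a signal, a destruction complex of Axin, Apc and kinases marks β-catenin (Ctnnb1) for degradation. A signal passed on by Dishevelled stops this complex, and β-catenin then enters the nucleus and acts with Tcf/Lef factors on target genes. Other Wnt signals run through Ror receptors, planar cell polarity proteins or calcium without β-catenin. In the embryonic heart the timing of these signals steers the choice between mesoderm, cardiac progenitors and muscle.

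Total counts were 17612958 to 19253858 per library, and a gene with a few counts in a group has no precise fold change at this depth. Nono had 365, 315 and 307 CPM (counts for every 1000000 counts of the TMM-scaled library) in WT against 6.38, 5.23 and 5.08 in Nono-KO libraries, which is -5.89 as a log2 fold change (standard error 0.13, adjusted p = 2.47e-10). Every fold change sets Nono-KO against WT, and adjusted p-values are from edgeR's quasi-likelihood test, adjusted by Benjamini-Hochberg over 12028 tested genes. A gene is said to have risen or fallen where its adjusted p was under 0.05. WT replicate 1 stood apart from the other WT libraries on the second principal component (29.3 against -15.5 and -11.1, 5.03% of the variance). The label of cardiac muscle is met in part by the markers. Of 12 cardiomyocyte markers, 9, including Myh6, Myh7, Tnni3 and Ryr2, were under 1 CPM in all 6 libraries. The summed level of 11 striated muscle markers was 464 to 619 CPM in WT and 1740 to 2017 CPM in Nono-KO libraries, and that of 8 smooth muscle markers was 6683 to 7541 and 14701 to 15800 CPM. Of the striated muscle markers 8 rose (all genes 34.2%), 1 fell (all genes 38.1%) and 2 did not pass. Of the smooth muscle markers 6 rose, 1 fell and 1 did not pass, and Des is in both muscle lists. The 11 fibroblast markers summed to 37364 to 45207 CPM in WT against 28851 to 33972 CPM in Nono-KO. This sum does not stand for each of them, since of 7 tested 3 rose (all genes 34.2%), 3 fell (all genes 38.1%) and 1 did not pass. The 5 endothelial markers summed to 2.94 to 4.45 against 0.70 to 1.22 CPM, and the 4 macrophage markers to 3.28 to 6.47 against 1.29 to 1.95 CPM. These low sums rest on few genes, as Pecam1, Kdr, Tek, Emcn, Itgam and Aif1 were under 1 CPM in all 6 libraries. The sums of these lists thus differed between the groups as well, and the part of the markers in the results was not tested. In bulk RNA, a change in the number of cells that express a gene and a change in RNA per cell cannot be told apart.

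Wnt pathway genes went both ways in Nono-KO cells, and families such as the Tcf/Lef factors held members that rose and members that fell. Of the 44 members, 32 passed the filter on low counts. Among these 14 rose, against 34.2% of all genes tested, 11 fell, against 38.1%, and 7 did not pass. The 25 called members stand beside 72.2% of all genes called in either direction. The percentages among the members were 43.8% and 34.4%, so that the members were called about as often as any gene. The median log2 fold change was -0.03 for the tested members and -0.05 for all genes tested. In 26 of the 32 members the libraries of the 2 groups did not overlap, against 75.1% of all genes tested: Nono-KO lay above WT in 15 (all genes 36.1%) and below it in 11 (all genes 39.0%). Dkk3, Apc2, Wnt5b and Wnt7b passed the filter only through their Nono-KO libraries and Ror2 and Fzd6 only through their WT libraries, so the counts among tested members do not stand for all 44. With a stricter rule (adjusted p under 0.01, log2 fold change above 1 or below -1), 8 members were higher (all genes 10.8%) and 8 lower (all genes 18.7%). Apc2, Wnt5b and Wnt7b are among the 8 that were higher, so the filter favoured part of that count. Ror2 and Fzd6 are not among the 8 that were lower.

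**Figure D1:**
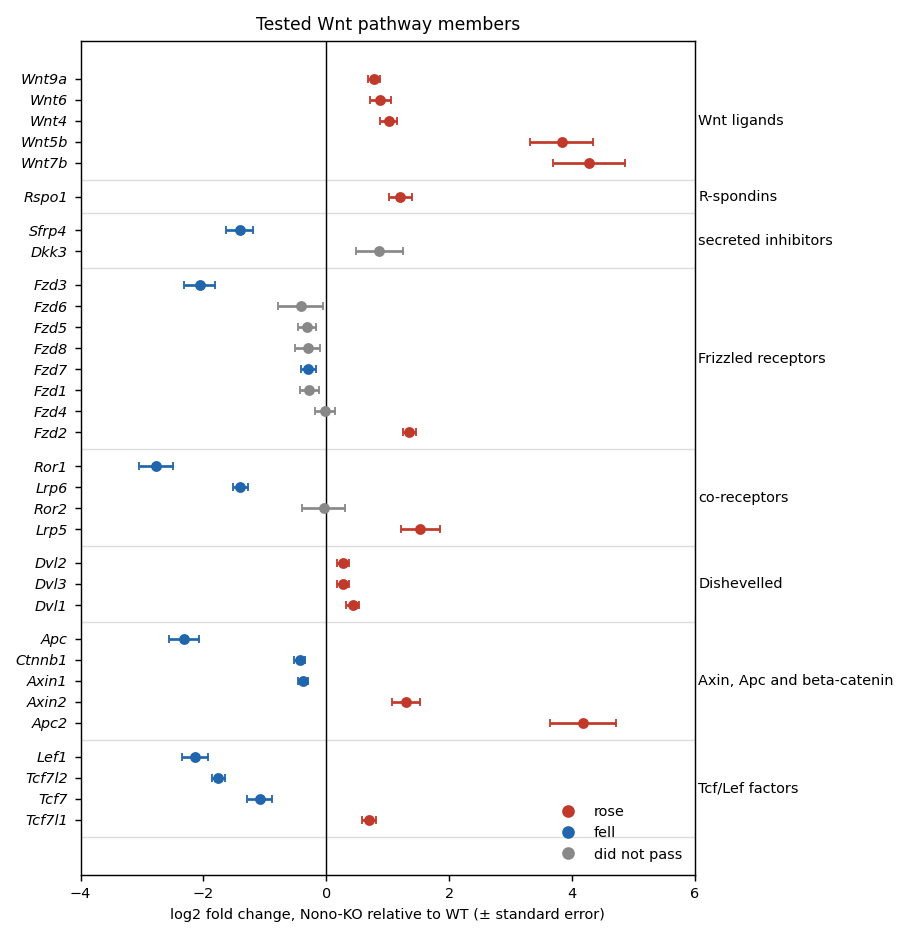
Log2 fold change, Nono-KO against WT (horizontal axis), with its standard error for each of the 32 tested members (vertical axis), grouped by role and coloured by call at an adjusted p under 0.05. Wnt4, Wnt6 and Wnt9a lie right of 0, as do Wnt5b and Wnt7b, which passed the filter only through Nono-KO, 3 of the 4 Tcf/Lef factors lie left of it, and most Frizzled receptors lie close to it.

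The Wnt ligands that were expressed in WT cells had higher counts in Nono-KO cells. Wnt4, a ligand known from kidney and gonad development, had 13.9, 12.0 and 12.6 CPM in WT and 30.6, 24.3 and 23.0 CPM in Nono-KO libraries (log2 fold change 1.02, standard error 0.14, adjusted p = 3.88e-05). Wnt9a, known from joint and blood stem cell development, had 24.7, 22.4 and 22.1 CPM in WT and 38.5, 40.8 and 38.7 CPM in Nono-KO libraries (0.77, standard error 0.10, adjusted p = 2.6e-05). Wnt6 had 5.57, 4.97 and 6.96 CPM in WT and 12.2, 10.7 and 9.37 CPM in Nono-KO libraries (0.88, standard error 0.18, adjusted p = 0.000751). For each of these ligands every Nono-KO library lay above every WT library, as in 36.1% of all genes tested. The rise was near 2-fold.

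A second set of ligands was close to absent in WT libraries and present at a low level in Nono-KO libraries. Wnt5b, which can act without β-catenin, had raw counts of 4, 0 and 2 (WT) against 24, 33 and 29 (Nono-KO). Wnt7b had raw counts of 0, 1 and 2 (WT) against 25, 20 and 17 (Nono-KO). Both rose in the test (log2 fold change 3.83 and 4.28, adjusted p = 3.77e-05 and 4.56e-05). However, they passed the filter only through their Nono-KO libraries, with no WT library over its cutoff, so the filter itself favoured a rise. The ratio of their total counts, scaled for library size, was 15.1 (exact 95% interval 6.65 to 42.2) for Wnt5b and 21.7 (7.11 to 108) for Wnt7b. These intervals cover counting error only. Single WT libraries moved the size of these folds. The log2 fold change of Wnt5b was 4.70 without WT replicate 1 and 3.28 without WT replicate 2. That of Wnt7b was 5.15 without WT replicate 3 and 3.70 without WT replicate 1.
Wnt10a and Wnt10b, ligands that signal through β-catenin, stayed under the filter. Wnt10a had raw counts of 0, 2 and 0 (WT) against 10, 17 and 6 (Nono-KO), a ratio of 17.4 (exact 95% interval 4.44 to 149). Wnt10b had raw counts of 0, 0 and 2 (WT) against 6, 16 and 7 (Nono-KO), a ratio of 15.3 (3.86 to 132). When no filter was used, both rose, with adjusted p = 0.00038 and 0.000863 from edgeR. Wnt1 had no count in WT and 4, 1 and 2 in Nono-KO. Set against a floor of 3 counts over the WT group this is 2.46-fold higher, a value that leaves out the counting error of the Nono-KO libraries. Wnt11 had raw counts of 0, 0 and 1 (WT) against 2, 0 and 3 (Nono-KO). Wnt2b, Wnt3, Wnt7a and Wnt9b had at most 4 counts in total in a group, and no difference was detectable at this depth.
Of the 13 ligands in the table, 8 were under the filter, Wnt5b and Wnt7b passed it only through Nono-KO, and the 3 that passed through both groups (Wnt4, Wnt6 and Wnt9a) rose, as did 34.2% of all genes tested. Some of these genes are neighbours in the RefSeq annotation of GRCr8, a different assembly used here for gene order alone. Wnt6 lies next to Wnt10a on chromosome 9, and Wnt10b next to Wnt1 on chromosome 7, and in both pairs each gene had more counts in total in Nono-KO than in WT. The neighbours Wnt9b and Wnt3 on chromosome 10 had 3 and 2 counts in all Nono-KO libraries together and none in WT.

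**Figure D2:**
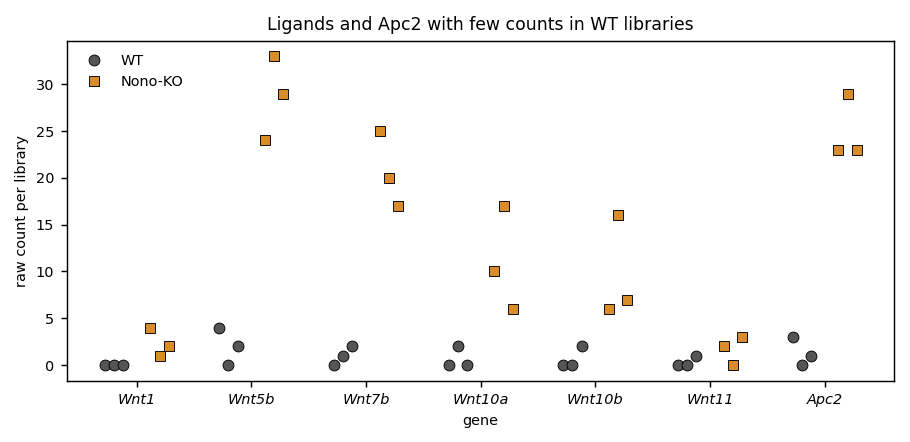
Raw counts per library (vertical axis) of 6 Wnt ligands and Apc2 (horizontal axis), with circles for the 3 WT and squares for the 3 Nono-KO libraries. No WT library has more than 4 counts for any of these genes, whereas Wnt5b, Wnt7b and Apc2 have 17 to 33 counts in each Nono-KO library.

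Among secreted modulators, the agonist Rspo1 rose and the inhibitor Sfrp4 fell. Rspo1, a growth factor that keeps Frizzled receptors on the cell surface, had 51.3, 87.1 and 98.7 CPM in WT and 190, 182 and 174 CPM in Nono-KO libraries (log2 fold change 1.20, standard error 0.19, adjusted p = 0.000229). The WT libraries spread over nearly 2-fold, with WT replicate 1 the lowest, and all of them lay below the Nono-KO libraries. Sfrp4, a soluble decoy that binds Wnt proteins, had 3.43, 3.58 and 3.39 CPM in WT and 1.40, 1.34 and 1.17 CPM in Nono-KO libraries (-1.41, standard error 0.22, adjusted p = 0.000123). The groups were narrow and did not overlap. Dkk3, a divergent Dickkopf protein, had 0.45, 0.54 and 0.84 CPM in WT and 1.58, 0.84 and 0.90 CPM in Nono-KO libraries and did not pass (adjusted p = 0.0576). It passed without WT replicate 3 (adjusted p = 0.0365), without Nono-KO replicate 2 (adjusted p = 0.045) and with DESeq2 size factors in edgeR (adjusted p = 0.0453). Dkk4, an inhibitor that binds Lrp5 and Lrp6, had raw counts of 8, 3 and 5 (WT) against 3, 2 and 2 (Nono-KO). Sfrp2, Sfrp5 and Rspo4 had 1 count each in all 6 libraries together.

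Of 8 Frizzled receptors tested, Fzd2 rose (all genes 34.2%), Fzd3 and Fzd7 fell (all genes 38.1%), and 5 did not pass (all genes 27.8%). Fzd2 had 113, 92.1 and 117 CPM in WT and 280, 279 and 266 CPM in Nono-KO libraries (log2 fold change 1.35, standard error 0.10, adjusted p = 4.89e-07). Fzd3, known for axon guidance and planar cell polarity, had 5.32, 3.85 and 4.73 CPM in WT and 0.82, 1.17 and 1.32 CPM in Nono-KO libraries (-2.06, standard error 0.25, adjusted p = 2.02e-05). These receptors thus differed in opposite directions, each with no overlap between the groups, as in 75.1% of all genes tested. Fzd7 had 63.5, 83.9 and 78.2 CPM in WT and 58.1, 56.6 and 69.4 CPM in Nono-KO libraries, and the highest Nono-KO library lay above the lowest WT library. Its fall of 0.29 on the log2 scale (adjusted p = 0.044) was lost when any of WT replicate 2, WT replicate 3, Nono-KO replicate 1 or Nono-KO replicate 2 was left out (adjusted p = 0.15, 0.104, 0.131 and 0.156), with DESeq2 (0.0675) and with DESeq2 size factors in edgeR (0.0786).
The log2 fold changes of Fzd1, Fzd4, Fzd5, Fzd6 and Fzd8 were between -0.42 and -0.02. Fzd5 had 7.56, 8.07 and 7.79 CPM in WT and 6.38, 5.96 and 6.46 CPM in Nono-KO libraries, which do not overlap, yet it did not pass (adjusted p = 0.0743). Fzd8 passed only without WT replicate 2 (-0.50, adjusted p = 0.0258). Fzd4 had 15.7 ± 3.43 CPM in WT against 15.4 ± 1.47 CPM in Nono-KO libraries (SD, n = 3 each).

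The co-receptors of the β-catenin branch changed in opposite directions. Lrp5 had 13.1, 4.44 and 6.34 CPM in WT and 24.0, 23.4 and 21.9 CPM in Nono-KO libraries (log2 fold change 1.53, standard error 0.31, adjusted p = 0.00149). WT replicate 1 was the highest of the WT libraries, and without it the log2 fold change was 2.10 (adjusted p = 3.11e-08). Lrp6, its close paralog, had 42.7, 52.9 and 56.8 CPM in WT and 18.9, 20.7 and 18.2 CPM in Nono-KO libraries (-1.40, standard error 0.12, adjusted p = 1.55e-06). Thus Lrp5 was 2.89-fold higher and Lrp6 was 2.63-fold lower in Nono-KO cells.
Ror1, a receptor tyrosine kinase-like protein that binds Wnt5a, showed the steepest fall of any tested member. It had 3.98, 6.74 and 6.57 CPM in WT and 0.99, 0.78 and 0.74 CPM in Nono-KO libraries (-2.77, standard error 0.28, adjusted p = 4.92e-06). Its paralog Ror2 stayed low in both groups, with raw counts of 11, 12 and 15 (WT) against 12, 14 and 9 (Nono-KO), and did not pass (adjusted p = 0.913).

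**Figure D3:**
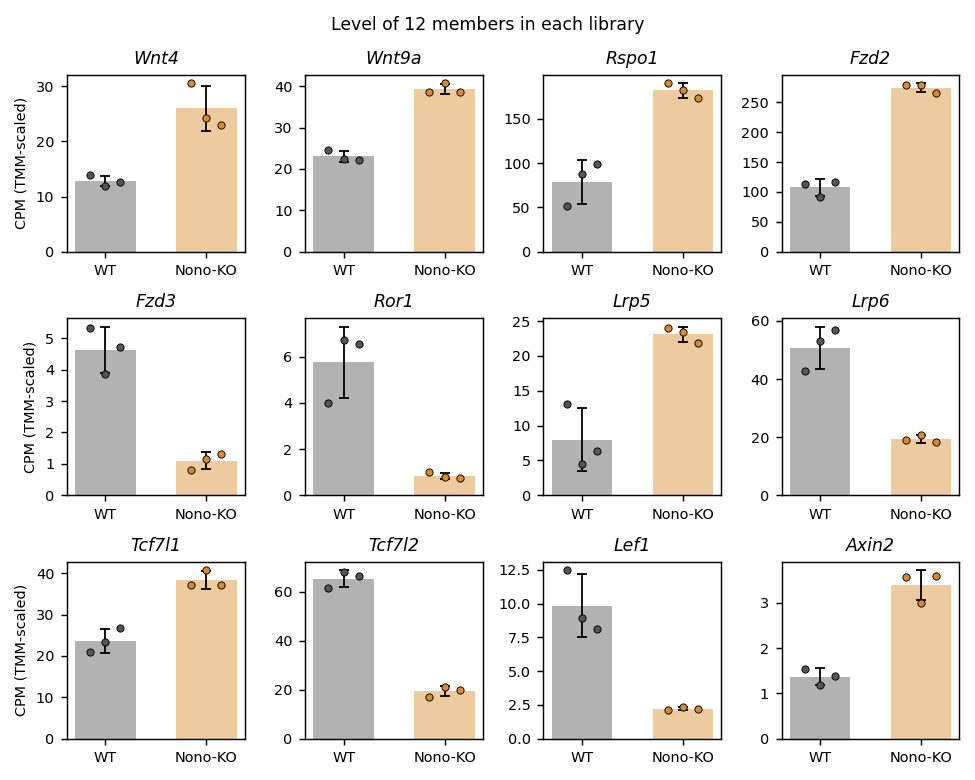
CPM after TMM scaling (vertical axes) of 12 members in both cell lines. Bars show the mean with its SD and dots the 3 single libraries, and in each panel all Nono-KO points lie on one side of all WT points, above for Lrp5 and Tcf7l1 and below for Lrp6 and Tcf7l2. The 12 are all members that rose or fell, and members whose groups overlap, such as Fzd4 and Ror2, are not shown. Groups did not overlap in 75.1% of all genes tested.

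Dishevelled genes, which code for the scaffolds that carry the signal from the receptors, rose by small amounts (of all genes tested, 34.2% rose). Dvl1 had 43.9, 40.2 and 48.9 CPM in WT and 60.4, 64.6 and 54.0 CPM in Nono-KO libraries (log2 fold change 0.43, standard error 0.10, adjusted p = 0.00295). Dvl2 (0.27, adjusted p = 0.0224) and Dvl3 (0.27, adjusted p = 0.0185) rose less, and their groups did not overlap either. The calls of both were lost without WT replicate 2 (adjusted p = 0.1 and 0.0877), without Nono-KO replicate 1 (0.0864 and 0.0571) and without Nono-KO replicate 2 (0.0783 and 0.0767).

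In the destruction complex, Apc and Axin1 fell and Axin2 rose. Apc, the scaffold that brings β-catenin to its kinases, had 9.90, 16.4 and 11.5 CPM in WT and 2.69, 3.06 and 1.85 CPM in Nono-KO libraries (log2 fold change -2.31, standard error 0.24, adjusted p = 5.74e-06). Apc2, a paralog best known from neurons, had raw counts of 3, 0 and 1 (WT) against 23, 29 and 23 (Nono-KO) (4.18, adjusted p = 2.9e-05). Its ratio of scaled totals was 19.7 (exact 95% interval 7.39 to 74.3). Apc2 passed the filter only through its Nono-KO libraries, with no WT library over the cutoff, so the filter itself favoured a rise. Its log2 fold change was 5.35 without WT replicate 1 and 3.64 without WT replicate 2.
Axin1, the limiting scaffold of the complex, had 80.0, 86.6 and 92.2 CPM in WT and 67.7, 65.0 and 66.0 CPM in Nono-KO libraries (-0.38, standard error 0.09, adjusted p = 0.00192). Axin2, a feedback inhibitor that is itself a target of β-catenin, had 1.54, 1.18 and 1.39 CPM in WT and 3.57, 3.01 and 3.60 CPM in Nono-KO libraries (1.30, standard error 0.23, adjusted p = 0.000307). The fall of Axin1 was small and the rise of Axin2 was 2.46-fold at a low level, and neither gene's groups overlapped. Ctnnb1, β-catenin itself, had 369, 396 and 341 CPM in WT and 263, 255 and 301 CPM in Nono-KO libraries (-0.43, standard error 0.09, adjusted p = 0.00119). These values concern RNA, and the amount or location of β-catenin protein was not analysed here.

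Of the 4 Tcf/Lef factors, which bind DNA and recruit β-catenin, 3 fell (all genes 38.1%) and Tcf7l1 rose (all genes 34.2%). Tcf7l2, widely expressed and active in gut and metabolism, had 61.5, 68.3 and 66.5 CPM in WT and 17.1, 21.0 and 19.96 CPM in Nono-KO libraries (log2 fold change -1.76, standard error 0.10, adjusted p = 1.2e-07). Lef1 had 12.5, 8.93 and 8.12 CPM in WT and 2.16, 2.34 and 2.17 CPM in Nono-KO libraries (-2.15, standard error 0.21, adjusted p = 3.66e-06). Tcf7, best known from T cells, had 10.7, 9.52 and 10.3 CPM in WT and 3.28, 5.45 and 5.61 CPM in Nono-KO libraries (-1.08, standard error 0.20, adjusted p = 0.000449). All 3 factors had all Nono-KO libraries below all WT libraries, as did 39.0% of all genes tested. Tcf7l1, which mostly acts as a repressor, had 20.9, 23.4 and 26.8 CPM in WT and 37.1, 40.7 and 37.0 CPM in Nono-KO libraries (0.69, standard error 0.11, adjusted p = 0.000173).

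The promoters of Tcf7l2, Lef1 and Tcf7l1 are shown because these Tcf/Lef genes moved in opposite directions, and that of Axin2 because it is the feedback target of the pathway. Each sequence runs from 250 bases before to 50 bases after the RefSeq start of the gene, on the gene's strand, in the build GRCr8. Capitals mark the words CTTTGA or TCAAAG, the core that Tcf/Lef proteins prefer read on either strand, and the related words CTTTGT or ACAAAG.
Tcf7l2, chr1:264791085-264791384, + strand: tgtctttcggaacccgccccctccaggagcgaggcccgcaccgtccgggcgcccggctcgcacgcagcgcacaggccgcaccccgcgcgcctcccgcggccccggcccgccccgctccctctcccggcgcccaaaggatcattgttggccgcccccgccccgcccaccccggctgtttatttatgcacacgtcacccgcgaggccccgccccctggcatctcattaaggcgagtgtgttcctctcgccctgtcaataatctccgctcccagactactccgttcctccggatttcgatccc
Lef1, chr2:222340463-222340762, + strand: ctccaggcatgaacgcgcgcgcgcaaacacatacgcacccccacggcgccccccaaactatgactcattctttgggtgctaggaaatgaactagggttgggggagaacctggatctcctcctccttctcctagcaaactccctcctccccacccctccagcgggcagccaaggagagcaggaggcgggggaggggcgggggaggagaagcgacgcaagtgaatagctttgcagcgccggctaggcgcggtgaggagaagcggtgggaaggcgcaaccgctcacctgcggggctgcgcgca
Tcf7l1, chr4:106403372-106403671, - strand: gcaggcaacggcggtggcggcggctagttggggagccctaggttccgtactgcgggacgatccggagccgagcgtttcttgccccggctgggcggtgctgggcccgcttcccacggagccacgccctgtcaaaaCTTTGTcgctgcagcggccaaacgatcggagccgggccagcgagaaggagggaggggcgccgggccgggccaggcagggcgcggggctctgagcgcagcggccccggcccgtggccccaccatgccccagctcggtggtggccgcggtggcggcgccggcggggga
Axin2, chr10:94398535-94398834, + strand: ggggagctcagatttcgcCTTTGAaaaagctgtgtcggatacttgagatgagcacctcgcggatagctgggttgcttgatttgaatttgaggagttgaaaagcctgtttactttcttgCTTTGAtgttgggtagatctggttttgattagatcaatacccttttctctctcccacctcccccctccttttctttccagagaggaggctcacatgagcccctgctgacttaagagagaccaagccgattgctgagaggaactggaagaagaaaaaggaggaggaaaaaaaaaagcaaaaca
The Axin2 promoter holds CTTTGA 2 times, starting 232 and 132 bases before the start of the gene, and the Tcf7l1 promoter holds CTTTGT once, 116 bases before it. The windows of Lef1 and Tcf7l2 hold neither word, which says only that these letters are not in these windows. A match is a description of the letters and not a binding site. RefSeq promoters were matched by symbol for 31 of the 44 members, and 3 of these (9.68%) hold CTTTGA or TCAAAG. Among 9354 promoters of genes tested the share was 11.6%. The 31 include members under the filter, such as Wnt1 and Wnt10a, and none of those holds the core. These shares thus cover unlike sets and are not directly comparable. The other members with this core were Fzd7 and Tcf7, which both fell and are not printed, so the promoters shown do not stand for the rest. By call, the core was in 2 of 7 matched members that fell (28.6%, all genes that fell 10.6%). It was in 1 of 10 that rose (10%, all genes that rose 12.2%). For CTTTGT or ACAAAG the shares were 16.1% of matched members and 12.7% of genes tested. The matched members with these words include Sfrp5 and Wnt3, which were under the filter. These words were in 2 of 7 members that fell (Apc and Ctnnb1) and 1 of 10 that rose (Tcf7l1). The median G and C content was 75.8% for the 10 matched members that rose and 62.7% for the 7 that fell, whereas over all matched genes it was 60.0% for those that rose and 63.0% for those that fell. These shares and medians are descriptions over few promoters, and no test was made.

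Beyond the members, other genes of the pathway were lower more often than higher. Of 136 such genes listed, 125 were in the table and 109 were tested, of which 58 fell (all genes 38.1%), 24 rose (all genes 34.2%) and 27 did not pass, with a median log2 fold change of -0.42 against -0.05 for all genes tested. The lists were written with earlier results of these data known, and no set test was made.
Of 17 tested genes of Wnt release and of secreted or membrane regulators, 6 fell, 4 rose and 7 did not pass. The 35.3% that fell lay below the 38.1% of all genes tested, and 23.5% rose, against 34.2%. Porcn, the enzyme that attaches the lipid to Wnt proteins, went from 21.4 ± 3.24 to 44.2 ± 3.22 CPM (SD, n = 3 each; log2 fold change 1.04, adjusted p = 1.46e-05). Wls, which carries Wnt proteins to the cell surface, had 194 ± 27.8 CPM in WT and 189 ± 13.7 CPM in Nono-KO (SD, n = 3 in each group) and did not pass. Adgra2, a co-receptor for Wnt7 ligands, rose by 0.96 on the log2 scale, while the glypicans Gpc6 and Gpc4 (-1.75 and -0.54) and Tpbg, a membrane modulator of Wnt signaling (-1.46), fell.
Of the receptors and ligases on which R-spondins act, picked with their values in view, Lgr4 and Znrf3 fell. Lgr4, a receptor for R-spondins, had 11.7, 17.8 and 18.6 CPM in WT and 8.31, 7.29 and 9.53 CPM in Nono-KO libraries (-0.93, adjusted p = 0.000804). Its relative Lgr6 had 2.70 ± 0.99 CPM in WT against 3.90 ± 0.40 CPM in Nono-KO libraries (SD, n = 3 each) and did not pass (0.52, adjusted p = 0.0872), and Lgr5 had 1 count in all libraries together. Znrf3, a ubiquitin ligase that removes Frizzled receptors, had 3.73, 4.54 and 4.12 CPM in WT and 1.58, 1.61 and 1.85 CPM in Nono-KO libraries (-1.29, adjusted p = 0.000193). Rnf43, its paralog, had raw counts of 2, 2 and 2 (WT) against 18, 14 and 18 (Nono-KO) (3.05, adjusted p = 6.31e-05). It passed the filter only through its Nono-KO libraries, with no WT library over the cutoff, so the filter itself favoured a rise.

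Of 28 tested genes of the destruction complex and β-catenin turnover, 15 fell (53.6%, all genes 38.1%), 6 rose (21.4%, all genes 34.2%) and 7 did not pass. Csnk1a1, the kinase that primes β-catenin for degradation, went from 134 ± 16.1 to 38.4 ± 1.43 CPM (SD, n = 3 each; log2 fold change -1.80, adjusted p = 1.05e-07), and Csnk1g3, of a kinase group that phosphorylates Lrp6, fell by 2.15 on the log2 scale. The largest rises of this list were in inhibitors that act on Dishevelled. Nkd2 went from 29.8 ± 6.14 to 163 ± 7.23 CPM (SD, n = 3 each; 2.45, adjusted p = 8e-08) and Dact3 from 40.7 ± 5.32 to 146 ± 11.7 CPM (1.84, adjusted p = 1.24e-07). Csnk1g2 rose by 0.27 on the log2 scale, a call that was lost without WT replicate 1, WT replicate 2, Nono-KO replicate 1 or Nono-KO replicate 2 (adjusted p = 0.06, 0.063, 0.0887 and 0.0904), and Ppp2r1a, a phosphatase scaffold, did not pass.
Of 29 tested nuclear partners of β-catenin and Tcf/Lef, 17 fell (58.6%, all genes 38.1%), 6 rose (20.7%, all genes 34.2%) and 6 did not pass. The acetyltransferase Ep300 (-1.84), the kinases Nlk (-1.88) and Hipk2 (-2.09), the adaptor Tab2 (-1.82) and the corepressor Ctbp1 (-0.33) fell. Tle5, a short Groucho-related protein, went from 780 ± 70.6 to 1514 ± 77.1 CPM (SD, n = 3 each; 0.96, adjusted p = 1.96e-06).
Of 35 tested genes of planar cell polarity and the β-catenin-independent branch, 20 fell (57.1%, all genes 38.1%), 8 rose (22.9%, all genes 34.2%) and 7 did not pass. Nfatc2, a calcium-regulated transcription factor that passed the filter only through its WT libraries (-3.21), Daam1, a formin that binds Dishevelled (-2.47), Camk2d (-2.14) and the GTPase Rac1 (-0.63) fell. Ptk7, a polarity co-receptor, rose by 0.21 on the log2 scale (adjusted p = 0.0447), and this call was lost without any of WT replicate 1, WT replicate 2, Nono-KO replicate 1 and Nono-KO replicate 2 (adjusted p from 0.0971 to 0.154).

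**Figure D4:**
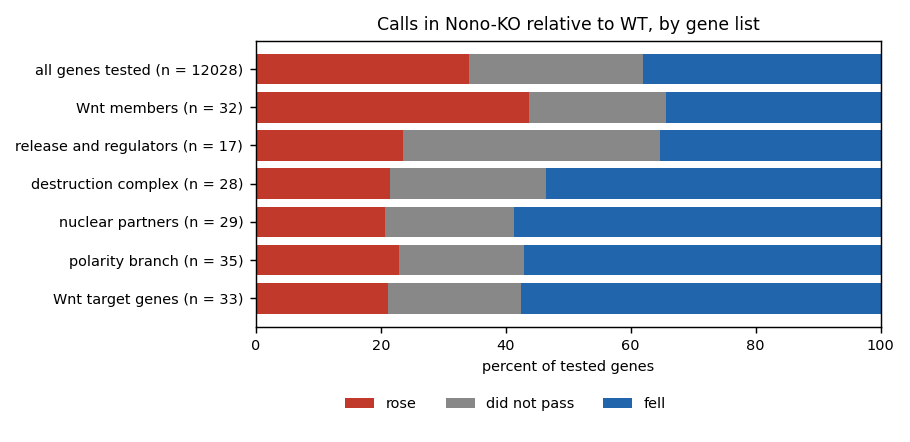
Percent of tested genes (horizontal axis) that rose, did not pass or fell at an adjusted p under 0.05, for all genes tested, the Wnt members and 5 further lists (vertical axis, with the number tested). The members stand at 43.8% risen and 34.4% fallen, whereas 57.6% of the target genes and 58.6% of the nuclear partners fell.

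Genes widely used as Wnt targets were mostly lower in Nono-KO cells, with exceptions that include Axin2. Of 33 tested of 55 listed, 19 fell (57.6%, all genes 38.1%), 7 rose (21.2%, all genes 34.2%) and 7 did not pass, with a median log2 fold change of -0.83. Myc, a driver of growth, had 63.3, 78.7 and 96.2 CPM in WT and 7.72, 6.57 and 7.04 CPM in Nono-KO libraries (-3.48, standard error 0.16, adjusted p = 2.4e-08). Fosl1, an AP-1 subunit, went from 344 ± 42.9 to 52.0 ± 4.99 CPM (SD, n = 3 each; -2.72), and the matricellular gene Ccn4 from 62.4 ± 12.4 to 15.6 ± 1.27 CPM (-1.99). The adhesion receptor Cd44 (-1.90) and cyclin D1 (Ccnd1, -1.02) fell as well. Lef1, Tcf7 and Znrf3, counted above, are among the targets that fell, and Axin2 and Rnf43 are among those that rose. The others that rose, named after their values were seen, were Mmp2 (2.58), Ephb3 (0.97), Edn1 (0.95), Bambi (0.86) and Vegfa (0.72). Mmp2 also passed the filter only through its Nono-KO libraries. Many of these targets also answer to other signals.

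**Figure D5:**
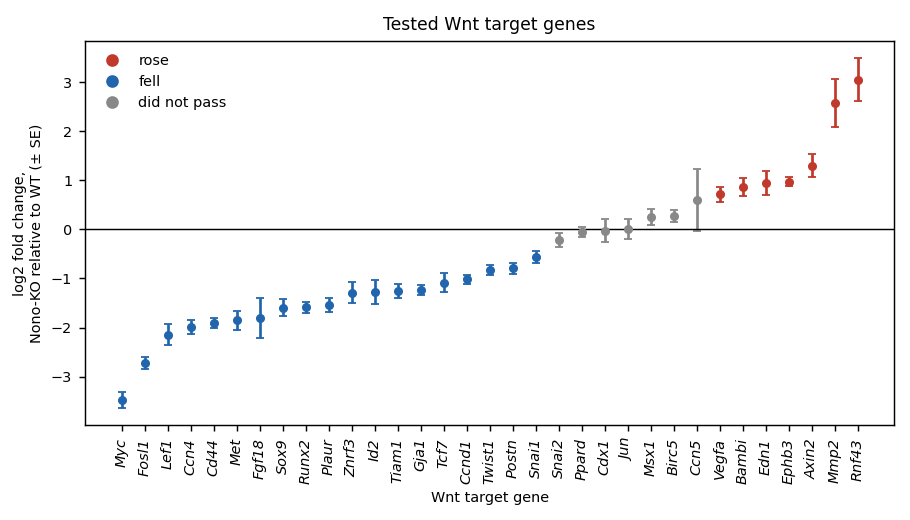
Log2 fold change, Nono-KO against WT (vertical axis), with its standard error for the 33 tested Wnt target genes (horizontal axis, in order of the fold change), coloured by call at an adjusted p under 0.05. Myc lies lowest at -3.48, and Axin2 at 1.30 is among the 7 genes that rose.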

How the data were processed

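Whole-number read counts per gene symbol were deposited by the authors, 1 column per library, unscaled and unpooled, and the 6 single-library files hold the same values as the table. HTSeq, HISAT2, Trimmomatic and the build mRatBN7.2 stand in the processing notes of the submitters, and Bowtie2 with Rn6 in the methods. The sources used here give no versions, annotation or strand setting, so reads of paralogs or overlapping genes may have been split or dropped. Libraries were TruSeq stranded mRNA libraries, grouped by their titles.
Counts were tested in R 4.3.3 with edgeR 4.0.16 (quasi-likelihood, robust dispersions, TMM, filterByExpr, which kept 12028 of 16319 genes). The cutoff of the filter was 0.542 CPM in 3 libraries. The standard error of a log2 fold change is its size over the root of the F statistic. The script of the fit was tested on simulated data. Alternatives were DESeq2 1.42.0, other scalings, filters and thresholds, the replicate number as a block and leaving out each library.
The members and gene lists were chosen with earlier results of these data known. Members in the table are all named. From the other lists up to 4 called genes with the largest change at 5 CPM or more and the 2 of highest CPM are named, except for a result that is not reported here. Markers of other cell types were summed per library. Promoters are RefSeq sequences of GRCr8, and a promoter not in that table was not used here.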

Additional observations from a re-analysis of the deposited data

How the results depend on the processing

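All 25 called members kept their direction under 12 alternatives that keep the threshold, and 22 kept their call, the exceptions being Dvl2, Dvl3 and Fzd7. Their counts stayed within 12 to 17 higher and 10 to 12 lower. A stricter rule was an adjusted p below 0.01 with an absolute log2 fold change over 1. Under it 8 of 32 tested members, 7 of 109 other pathway genes and 3 of 33 targets were higher, against 1294 of all genes tested (10.8%). Among those higher, Apc2, Wnt5b, Wnt7b, Rnf43 and Mmp2 passed the filter only through Nono-KO, so the filter itself favoured their rise. Under the same rule 8 members, 35 other pathway genes and 16 targets were lower, against 2252 of all genes tested (18.7%). Among those lower, Nfatc2, Vangl2 and Fgf18 passed the filter only through WT, so the filter favoured their fall. Without a filter, 3 more ligands were called (Wnt1, Wnt10a and Wnt10b) and the members' median log2 fold change was 0.40, as genes near 0 counts in WT entered it. Leaving out single libraries moved that median from -0.12 to 0.18, so it has no stable sign. Fzd4 and Ror2, neither called, changed sign with DESeq2 size factors in edgeR (0.027 and 0.0074), and Fzd4 also with DESeq2 (0.0035). Leaving out single libraries gave -0.18 to 0.14 for Fzd4 and -0.19 to 0.18 for Ror2. With total counts alone Dvl2 lost its call (adjusted p = 0.0646) and Fzd5 gained one (adjusted p = 0.0458).
The replicate numbers did not pair the libraries, since deviations of same-numbered libraries correlated at 0.046, -0.16 and -0.19 and 1 of 6 libraries correlated best with their own number. With the replicate number as a block, 14 members rose and 11 fell, as without it, and among the other named genes Ptk7 lost its call (adjusted p = 0.104). The scaling moved the median of all genes between -0.11 and 0.0032. Members under the filter are limited by depth, and the fitted fold changes of Apc2, Wnt5b and Wnt7b by their few WT counts.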

Other observations

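Some paralogs of the pathway lists moved in opposite directions, and others fell together. The examples were chosen after their values were seen, and no count over all paralog families was made. Gsk3b, a kinase of the destruction complex, had 69.1, 92.7 and 99.9 CPM in WT and 39.2, 38.0 and 40.5 CPM in Nono-KO libraries (log2 fold change -1.15, adjusted p = 8.75e-06 from edgeR), while its paralog Gsk3a had 108, 114 and 123 CPM in WT and 155, 153 and 142 CPM in Nono-KO libraries (0.39, adjusted p = 0.00157). The catalytic phosphatase subunit Ppp2ca fell by 0.92 on the log2 scale and Ppp2cb rose by 0.33. The Groucho corepressors Tle1 (-1.54) and Tle3 (-0.70) fell and Tle2 (1.12) rose. In contrast, the tankyrases Tnks (-0.61) and Tnks2 (-1.37), the calcineurin subunits Ppp3ca (-1.09), Ppp3cb (-1.08) and Ppp3cc (-0.62), the kinases Mapk8 (-1.01) and Mapk9 (-0.37), the acetyltransferases Crebbp (-1.51) and Ep300 (-1.84) and the ubiquitin ligase subunits Btrc (-0.26) and Fbxw11 (-0.48) fell together.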
